A study of Mus musculus with 5 samples.

Results

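The genes described here encode 10 acute phase proteins of the liver, namely Saa1, Saa2, Saa3, Saa4, Orm1, Orm2, Hp, Hpx, Apcs and Lrg1. They were chosen by name, and each symbol matched 1 row of the deposited table of normalised counts, 10 of 55397 genes in all. All 10 had enough reads to be tested, among 17105 genes tested.

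The RNA was that of liver tumours cut out of C57BL/6N females, 2 libraries labelled Control and 3 labelled late Prox1 overexpression (Prox1 OE). All mice were injected at 8 weeks of age by the hydrodynamic tail vein route, which drives plasmids into hepatocytes. Every mouse received 4 µg of Sleeping Beauty transposase under a CMV promoter, with 10 µg of transposon plasmids for Akt and for the NOTCH1 intracellular domain (NICD) under an EF1a promoter. The NICD plasmid also carried rtTA, the activator that doxycycline switches on. Control mice received a further 10 µg plasmid with GFP alone behind the rtTA-responsive promoter, and Prox1 OE mice received one with FLAG-tagged mouse Prox1 and GFP. Both groups are described as fed a 6.25% doxycycline diet from day 21, for expression between week 3 and week 4. Some tumours may have been collected once overexpression had run for a week and others at a humane endpoint, since the labels allow for either without assigning it. The labels call the cells transformed hepatocytes, but a dissected nodule also holds vessels, stroma and blood cells, and in such bulk RNA fewer cells of a type and less RNA per cell cannot be told apart. The labels do not say whether the libraries of a group came from separate mice, so the p-values measure only the spread between these samples.

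The acute phase response is the change in plasma proteins that follows infection, injury or inflammation. Interleukin-6 and related cytokines act on hepatocytes through STAT3, and interleukin-1 and tumour necrosis factor act through NF-kB. With C/EBP and the hepatocyte nuclear factors these pathways raise the positive acute phase genes, while the negative acute phase genes, such as the one for albumin, fall. The serum amyloid A (SAA) proteins are lipid-binding proteins carried on high density lipoprotein. Saa1 and Saa2 are strongly inducible in liver, Saa3 is made mainly outside hepatocytes, and Saa4 is expressed constitutively.

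Of the 10 genes, 5 were higher in Prox1 OE tumours at an adjusted p under 0.05 (Orm2, Saa4, Orm1, Hpx and Apcs). None was lower by limma, at an unadjusted p under 0.05 either (0 genes), and edgeR and DESeq2 also placed 0 lower. Over all genes tested, 17.1% passed as higher and 16.2% as lower. The median log2 fold change of the 10 genes was 1.29, against -0.02 over all genes tested. In 6 of the 10 genes the groups did not overlap and Prox1 OE was higher, a pattern shown by 30.9% of all genes tested. Taken as shares of all reads, 4 of the 10 stayed apart in this way (Saa4, Orm1, Orm2 and Hpx), as did 14.0% of all genes tested. The 5 genes that did not pass were Saa1, Saa2, Saa3, Hp and Lrg1, with adjusted p from 0.12 to 0.40. The number that passed as higher depended on the library set. It was 9 without Prox1 OE 1, where 21.8% of all genes tested passed as higher, and 4 without Prox1 OE 3 (12.7% of all genes). It was 3 without Prox1 OE 2 (12.4%) or Control 2 (9.08%), and 1 without Control 1 (5.21%).

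**Figure D1:**
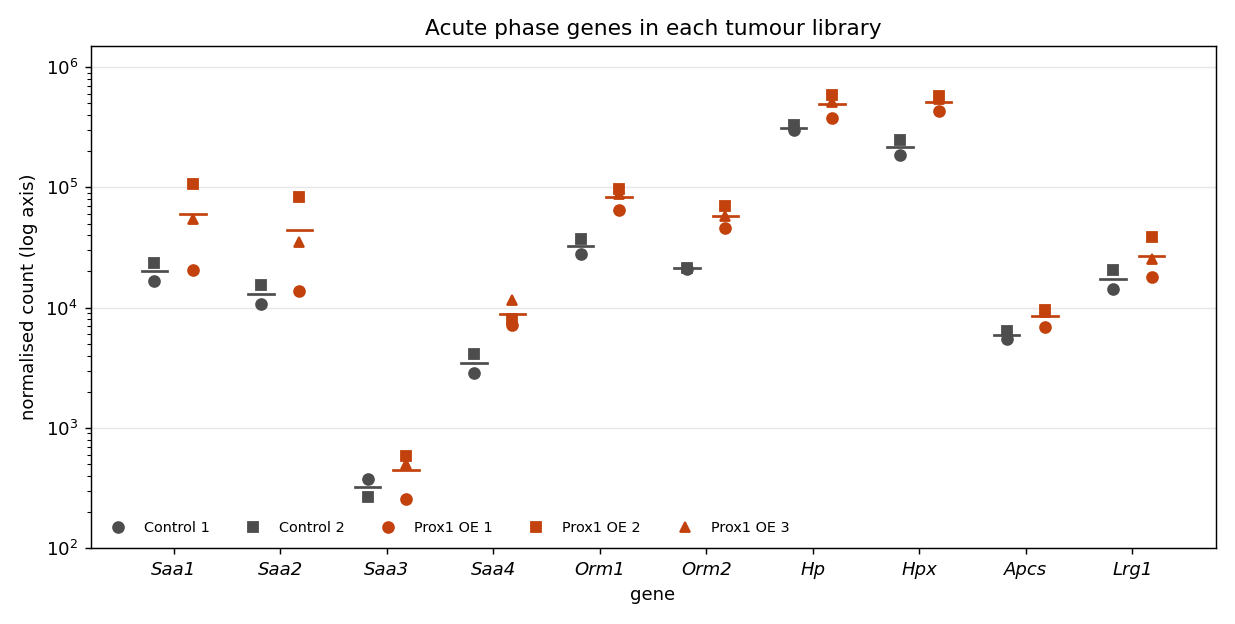
Normalised count (log axis) of each acute phase gene in the 2 Control libraries (grey) and the 3 Prox1 OE libraries (orange), with horizontal lines at the group means. Prox1 OE 2 was the highest library for 9 of the 10 genes, and Prox1 OE 1 was the lowest of the Prox1 OE libraries for all 10.

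The libraries held 48740863 to 56629477 reads, with overlapping totals in both groups. Prox1 itself was counted at 4153 and 4664 in the Control libraries and at 48090, 11113 and 8231 in Prox1 OE 1, 2 and 3. Every library labelled as overexpressing lay above both Controls, although the spread within the group kept limma's adjusted p at 0.061 (log2 fold change 1.90 ± 0.66, SE). Prox1 passed without Prox1 OE 1 (log2 1.12, adjusted p = 0.0055) and without Prox1 OE 3 (log2 2.39, adjusted p = 0.032). Plasmid and endogenous Prox1 reads were counted together. The library with the most Prox1 reads, Prox1 OE 1, was the one with the lowest acute phase values of its group.

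The SAA genes lie together on chromosome 7 (build mm10), Saa3 at 46711998-46715700, Saa4 at 46727998-46732603 and Saa1 at 46740497-46742980 on the minus strand, and Saa2 at 46751790-46754313 on the plus strand. Saa1 and Saa2 thus face away from each other, and their start regions are near-copies, identical at 287 of 299 aligned bases (96.0%). The Saa1 start region shared 65.1% of aligned bases with that of Saa3 and 61.6% with that of Saa4. The 4 regions are shown because the genes behind them fell into different patterns in these tumours, and that of Orm2 because its call held under all 16 alternative settings. Each runs from 250 bases before to 50 bases after the gene start in RefSeq (GRCm38.p6), 5′ to 3′ on the strand of the gene, at chr7:46742931-46743230 for Saa1 (minus), chr7:46751583-46751882 for Saa2 (plus), chr7:46715627-46715926 for Saa3 (minus), chr7:46732554-46732853 for Saa4 (minus) and chr4:63362199-63362498 for Orm2 (plus). Capitals mark matches to the C/EBP pattern TTGCNNAA on either strand.
Saa1: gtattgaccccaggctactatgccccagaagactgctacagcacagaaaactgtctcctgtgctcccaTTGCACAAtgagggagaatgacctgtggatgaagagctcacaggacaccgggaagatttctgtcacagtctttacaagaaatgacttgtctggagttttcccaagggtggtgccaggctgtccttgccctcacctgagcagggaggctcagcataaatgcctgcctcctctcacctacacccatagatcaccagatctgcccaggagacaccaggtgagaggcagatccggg
Saa2: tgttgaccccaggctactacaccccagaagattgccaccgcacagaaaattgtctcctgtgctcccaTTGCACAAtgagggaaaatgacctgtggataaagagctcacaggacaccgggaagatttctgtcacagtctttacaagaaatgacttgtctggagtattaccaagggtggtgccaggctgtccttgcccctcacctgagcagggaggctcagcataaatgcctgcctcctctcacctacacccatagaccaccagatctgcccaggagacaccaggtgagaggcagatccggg
Saa3: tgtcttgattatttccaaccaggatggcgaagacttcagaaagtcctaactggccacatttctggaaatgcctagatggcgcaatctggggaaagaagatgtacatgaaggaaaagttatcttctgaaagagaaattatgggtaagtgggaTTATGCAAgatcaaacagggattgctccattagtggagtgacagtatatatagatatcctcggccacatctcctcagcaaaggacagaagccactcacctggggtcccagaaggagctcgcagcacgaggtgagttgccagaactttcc
Saa4: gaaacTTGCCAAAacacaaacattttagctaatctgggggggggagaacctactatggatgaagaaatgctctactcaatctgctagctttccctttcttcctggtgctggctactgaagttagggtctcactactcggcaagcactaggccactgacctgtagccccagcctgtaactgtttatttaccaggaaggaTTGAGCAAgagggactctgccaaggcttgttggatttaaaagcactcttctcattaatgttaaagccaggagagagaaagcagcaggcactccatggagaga
Orm2: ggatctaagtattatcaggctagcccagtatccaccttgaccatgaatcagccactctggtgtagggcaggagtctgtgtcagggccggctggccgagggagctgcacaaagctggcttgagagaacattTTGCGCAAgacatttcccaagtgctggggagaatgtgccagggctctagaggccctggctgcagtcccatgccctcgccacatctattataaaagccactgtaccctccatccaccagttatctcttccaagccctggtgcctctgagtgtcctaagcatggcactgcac

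RefSeq start regions were at hand for 8 of the 10 genes, all but Orm1 and Hp. The C/EBP pattern was found in 6 of the 8 (the 5 shown and Hpx), against 10.8% of 32851 mouse start regions of the same length. The Saa1 and Saa2 matches stand in near-copies of one region, so they are not independent of each other. In Saa1 and Saa2 the match began at positions -182 and -183 from the gene start, in Saa3 at -99, in Orm2 at -120 and in Saa4 at -245 and -52. The Orm2 match reads the same on both strands. The STAT pattern TTCNNNGAA was found in Apcs alone, against 8.3% of all start regions. The NF-kB pattern, GGG and TTTCC with any 2 bases between (1.63% of all), was found in 0 of the 8. No match of one pattern overlapped a match of another. These are letter matches in a short window and say nothing of binding.

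Saa1 and Saa2, the inducible liver SAA genes, differed more within the Prox1 OE group than between the groups. Saa1 had normalised counts of 16578 and 23471 in Control 1 and 2, against 20688, 105782 and 54404 in Prox1 OE 1, 2 and 3. Prox1 OE 2 and 3 stood above both Controls, while Prox1 OE 1 lay between them. Control averaged 20024 ± 4874 (SD, n = 2), against an average of 60292 ± 42852 (SD, n = 3) under overexpression, a ratio of means of 3.01. On the log2 scale the difference was 1.32 ± 0.59 (SE), which did not pass (limma adjusted p = 0.12).

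Saa2 followed Saa1 closely, with 10661 and 15532 in Control against 13719, 82555 and 35461 in Prox1 OE. Again Prox1 OE 1 lay between the Controls and the other Prox1 OE libraries lay above them. The highest Prox1 OE library held 6.02 times as many normalised counts as the lowest for Saa2, and 5.11 times for Saa1. Its own fold change on the log2 scale, 1.41 ± 0.64 (SE), did not pass either (adjusted p = 0.13 by limma). Without Prox1 OE 1 the fold changes were 1.94 for Saa1 (adjusted p = 0.0089) and 2.07 for Saa2 (adjusted p = 0.012), and without Prox1 OE 2 they were 0.77 and 0.78 and did not pass.

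The ratio of Saa1 to Saa2 was 1.56 and 1.51 in Control and 1.51, 1.28 and 1.53 in Prox1 OE. All but Prox1 OE 2 thus lay within a narrow band, and the mean log2 ratio differed by -0.09 (exact permutation test, two-sided, p = 0.4). With 2 against 3 libraries this test cannot give a p below 0.2. It was used for 27 ratios, differences and shares, whose p-values adjusted over the 27 by the Benjamini-Hochberg method ran from 0.42 to 1.0. Among 12970 genes with a mean of at least 100 normalised counts, Saa2 was the gene most like Saa1 across the 5 libraries, with a root mean square difference of 0.10 between centred log2 values. Rasd1 (0.25) and Gm11843 (0.32) came next. Although the Saa1 and Saa2 transcripts matched at 94.4% of aligned bases, 0 of their stretches of 100 bases, the read length, were shared with a transcript of another gene, so each read of full match could be placed.

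Saa3, the SAA gene known from macrophages and fat, was the lowest of the 10 genes. It had 377 and 267 normalised counts in Control, and 256, 590 and 505 in Prox1 OE. The groups overlapped, with Prox1 OE 1 the lowest of all 5 libraries. The log2 fold change of 0.42 ± 0.36 (SE) did not pass by limma (adjusted p = 0.40) and was -0.01 when total count set the library size. Among the 16 alternatives it passed in 1, without Prox1 OE 1 (log2 0.78, adjusted p = 0.029). Saa1 had 44 and 87.9 times as many normalised counts as Saa3 in Control and 80.9, 179 and 108 times in Prox1 OE. The log2 ratio of Saa3 to Saa1 differed by -0.90 between group means (exact permutation test, p = 0.4), with overlapping groups. It was -0.40 without Control 1, -0.59 without Prox1 OE 2 and -1.40 without Control 2. The genes most like Saa3 by the same measure were 1700047M11Rik (0.11), Gm10073 (0.12) and Adam32 (0.13).

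Markers of macrophages, a known source of Saa3, were counted beside it. Of 8 macrophage and Kupffer cell markers, 2 were higher by limma (Clec4f and Vsig4) and 0 were lower, with 6 higher and 0 lower at an unadjusted p under 0.05. Over all genes tested, 22.8% were higher and 22.9% lower at that unadjusted p. By edgeR 2 were higher and by DESeq2, which called 20.3% of all genes higher, 6 were, and both gave 0 lower. Under total count scaling 1 marker was higher by limma and 2 at an unadjusted p under 0.05 (8.58% and 10.1% of all genes). By limma without the trend 0 were higher, with 2 at that unadjusted p. Without Control 1, 0 passed by limma (4 higher and 0 lower at an unadjusted p under 0.05), without Control 2, 4 did, and without Prox1 OE 2, 3 did. The summed normalised counts of these markers, which depend on how libraries were scaled, were 19263 to 22398 in Control and 27863 to 45066 in Prox1 OE. The sum was highest in Prox1 OE 1, where Saa3 was lowest. That sum was mostly Lyz2, at 26966 in Prox1 OE 1, and by single markers 4 of the 8 were highest in Prox1 OE 1 and 4 (Clec4f, Vsig4, Timd4 and Marco) in Prox1 OE 3. Of the 8 neutrophil markers, 6 could be tested, and 0 passed by limma, edgeR or DESeq2 or at an unadjusted p under 0.05. Their sums were 776 to 1167 in Control and 1010 to 1344 in Prox1 OE, with Ly6g at 0 to 3.47 and Mpo at 0 to 9.04. None of the 3 adipocyte markers had enough reads to be tested, with sums from 0 to 4.24. Of the 4 lymphocyte markers tested, 3 were higher by limma (Cd3e, Cd3g and Nkg7), with a median log2 fold change of 1.29 and sums of 113 to 119 in Control and 219 to 348 in Prox1 OE. Without Control 1, Control 2 or Prox1 OE 2, 0 of the lymphocyte markers passed by limma (3, 2 and 3 were higher at an unadjusted p under 0.05), and without Prox1 OE 3, 1 did. Of 6 stellate cell and fibroblast markers, 2 were higher (Reln and Colec11) and 1 was lower (Col1a1, log2 -1.23). Their sums were 40710 to 42034 in Control and 24997 to 28001 in Prox1 OE. Most of the Control sums was Col1a1, at 31809 and 29586, against 13386, 15445 and 10742 in Prox1 OE. The median log2 fold change of the list was 0.09. Under total count scaling 1 marker of the list was higher and 3 were lower, where 40.0% of all genes tested passed as lower. The higher ones numbered 1 without Control 1, Control 2 or Prox1 OE 3, and Reln did not pass under total count scaling (adjusted p = 0.52). The part of these cells in the acute phase values was not tested.

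Saa4, the constitutive SAA gene, rose in every Prox1 OE library. It had 2843 and 4104 normalised counts in Control against 7225, 8013 and 11532 in Prox1 OE, so that the lowest Prox1 OE value was 1.76 times the highest Control value. On the log2 scale it rose by 1.36 ± 0.23 (SE, adjusted p = 0.0060 by limma). Saa4 was the one gene of the 10 whose highest library was Prox1 OE 3. Without Control 1 its adjusted p was 0.053.

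Orm1 and Orm2 encode alpha-1-acid glycoproteins (orosomucoids), abundant plasma carriers of drugs and lipids. They lie side by side on the plus strand of chromosome 4, at 63344560-63348163 and 63362449-63365878. Orm1 had 28059 and 37324 normalised counts in Control and 64345, 96248 and 88899 in Prox1 OE, with the groups apart. The rise was 1.34 ± 0.23 on the log2 scale (SE, adjusted p = 0.0061 by limma), with an adjusted p of 0.078 without Control 1.

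Orm2 had 20996 and 21443 normalised counts in Control, nearly equal, and 45657, 70446 and 57520 in Prox1 OE. Even the lowest Prox1 OE library held 2.13 times the normalised counts of the higher Control. The rise was 1.43 ± 0.20 on the log2 scale (SE, adjusted p = 0.0035 by limma). Orm2 was also the one gene of the 10 that passed under each of the 16 alternative settings, with adjusted p up to 0.038. Orm3, the related gene of the same family, also rose, from 924 and 1429 to 3590, 4516 and 4754 (log2 1.89 ± 0.21, limma adjusted p = 0.0024).

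The ratio of Orm1 to Orm2 was 1.34 and 1.74 in Control and 1.41, 1.37 and 1.55 in Prox1 OE. The Prox1 OE values all lay between those of the 2 Controls (exact permutation test of the log2 ratio, p = 0.8). The difference in mean log2 ratio was -0.28 without Control 1 and 0.11 without Control 2. The transcripts of Orm1 and Orm2 matched at 91.0% of aligned bases, and 6.95% of their stretches of 100 bases were found in both, so a small share of their reads could have been given to either.

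Hp encodes haptoglobin, which binds free haemoglobin, and Hpx encodes hemopexin, which binds free haem. Both are among the most abundant transcripts of the liver. Hp (chromosome 8, 109575128-109579172, minus strand) had 301177 and 327034 normalised counts in Control and 378318, 589755 and 510551 in Prox1 OE. In normalised counts the groups did not overlap, yet Prox1 OE 1 stood only 1.16 times above Control 2. As a share of all reads Hp overlapped, at 0.696% and 0.714% in Control and 0.659%, 1.03% and 0.779% in Prox1 OE. A log2 fold change of 0.63 ± 0.34 (SE) did not pass by limma (adjusted p = 0.19), although Hp passed by DESeq2 (log2 0.66, adjusted p = 0.0077). Under total count scaling it was 0.20 (adjusted p = 0.52 by limma).

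Hpx (chromosome 7, 105591613-105600137, minus strand) had the larger fold change, going from 186356 and 247168 in Control to 428483, 578205 and 541208 in Prox1 OE. The lowest Prox1 OE library was 1.73 times the highest Control. This was a log2 fold change of 1.25 ± 0.32 (SE), which passed by limma (adjusted p = 0.023). It kept its direction without any single library but did not pass without Control 1 (adjusted p = 0.27), Control 2 (0.11) or Prox1 OE 2 (0.058).

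The ratio of Hp to Hpx separated the groups. Hp had 1.62 and 1.32 times the normalised counts of Hpx in Control and 0.883, 1.02 and 0.943 times in Prox1 OE. All Prox1 OE ratios lay below both Control ratios, and the mean log2 ratio differed by -0.63 (exact permutation test, p = 0.2, the smallest p it can give). This ratio is within a library and does not depend on how libraries were scaled. Genes of red blood cells had summed normalised counts of 4937 and 7492 in Control and 12275, 8407 and 17912 in Prox1 OE. All Prox1 OE sums lay above both Controls, but unlike the ratio these sums depend on how libraries were scaled. By limma and by edgeR 1 of the 5 genes (Alas2) was higher. All 5 were higher by DESeq2 and at an unadjusted p under 0.05. Without Prox1 OE 2, 2 of the 5 passed by limma, with 5 higher at an unadjusted p under 0.05. At that unadjusted p only 1 was higher without Prox1 OE 1 or without Prox1 OE 3. It was 1 as well under total count scaling and by limma without the trend. The part of the red blood cell genes in the ratio was not tested.

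Apcs encodes serum amyloid P component, the pentraxin that is the main acute phase pentraxin of the mouse. It had 5438 and 6338 normalised counts in Control and 6949, 9594 and 9138 in Prox1 OE. The groups were apart by little, Prox1 OE 1 being 1.10 times Control 2. With a log2 fold change of 0.53 ± 0.17 (SE), Apcs just passed by limma (adjusted p = 0.045). The call was lost without Control 1 (adjusted p = 0.29), Control 2 (0.11), Prox1 OE 2 (0.13) or Prox1 OE 3 (0.11), and under total count scaling the fold change was 0.10 (adjusted p = 0.63), with overlapping shares of reads. Crp, the related pentraxin gene, had 12734 and 11893 in Control and 14168, 17034 and 23279 in Prox1 OE (log2 0.53 ± 0.21, limma adjusted p = 0.086, and 0.036 by DESeq2).

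Lrg1 encodes leucine-rich alpha-2-glycoprotein, a secreted protein that acts on TGF-beta signalling in endothelium. It had 14198 and 20618 normalised counts in Control and 17861, 38370 and 25195 in Prox1 OE. As for Saa1 and Saa2, Prox1 OE 1 lay between the Controls and Prox1 OE 2 was highest. Over all libraries the log2 fold change of 0.60 ± 0.32 (SE) did not pass by limma (adjusted p = 0.18), and it was 0.86 without Prox1 OE 1 (adjusted p = 0.045), 0.31 without Prox1 OE 2 (0.41) and 0.33 without Control 1 (0.63). The genes most like Lrg1 across the libraries were Itih4 (0.14), Itih3 (0.14) and Lgals4 (0.15), of which the first pair encode heavy chains of the inter-alpha-trypsin inhibitor family and stand in the list of other positive acute phase genes. Of 6 endothelial markers, 2 were higher by limma (Stab2 and Clec4g), and 3 were higher by edgeR, by DESeq2 and at an unadjusted p under 0.05. By each of these 0 were lower, although 3 were lower under total count scaling, where 40.0% of all genes tested passed as lower. Without Prox1 OE 3, 3 were lower at an unadjusted p under 0.05, and without Control 1, 1 passed as higher. Their summed normalised counts were 7710 to 9943 in Control and 9676 to 14007 in Prox1 OE, and their part in the Lrg1 values was not tested.

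**Figure D2:**
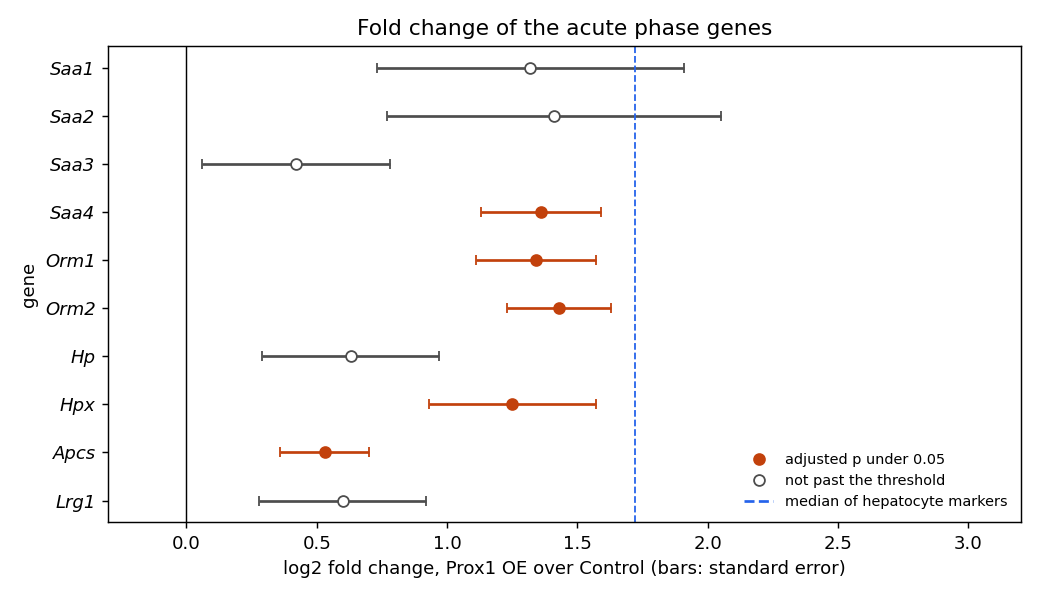
Log2 fold change of each acute phase gene, Prox1 OE over Control, with bars of 1 standard error. Filled points passed an adjusted p of 0.05 by limma, and the dashed line is the median of the hepatocyte markers (1.72), above the fold change of all 10 genes.

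Compared per length, in RPKM, that is reads scaled by exon length and by the reads of the library, Hp and Hpx were far above the rest. Taking the union of all exons, mean levels in Control were 4390 for Hp, 3240 for Hpx, 944 for Orm1, 615 for Orm2, 276 for Lrg1, 181 for Saa1, 136 for Apcs, 116 for Saa2, 37.1 for Saa4 and 2.79 for Saa3. The annotated exons of Saa1, Saa2 and Saa3 include long retained introns, so the levels were also taken over the principal transcript, a choice made after seeing the data. By that length Saa1 was at 735 ± 150 and Saa2 at 449 ± 101 RPKM in Control (SD, n = 2), which placed Saa1 just after Hp (5241), Hpx (3236) and Orm1 (944). In Prox1 OE, Saa1 reached 1658 ± 1241 and Saa2 1133 ± 954 (SD, n = 3). The RPKM ranges of Orm1, Saa1, Orm2 and Saa2 there overlapped from each to the next, although within every library Orm1 was above Orm2 and Saa1 above Saa2. The ranges of Hp and Hpx overlapped in Prox1 OE too (6105 ± 1389 and 5732 ± 885), and were apart in Control. Over the union of exons Hp had the lower mean there, 5110 against 5730 RPKM for Hpx.

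The 10 genes together took 1.36% and 1.54% of all reads in Control and 1.71%, 2.75% and 2.04% in Prox1 OE. All Prox1 OE shares lay above both Control shares, and the means differed by 0.72 percentage points (exact permutation test, p = 0.2, again the smallest p possible). Without Prox1 OE 2 the difference was 0.429 percentage points. Hp and Hpx made up most of it, with 0.659% to 1.03% of reads for Hp and 0.431% to 1.01% for Hpx across the libraries.

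The hepatocyte markers were higher in Prox1 OE as well. All 9 (Alb, Apob, Cps1, Ttr, Tat, Hnf4a, Asgr1, Cyp2e1 and Apoc3) were higher in Prox1 OE by limma, with a median log2 fold change of 1.72 and summed normalised counts of 705581 and 1102799 in Control against 2687299, 2298729 and 3658386 in Prox1 OE. The number that passed was 3 without Control 1, 6 without Prox1 OE 2 and 7 or 8 without each of the other libraries. Of 7 cholangiocyte markers, 6 were lower (median log2 -1.92), although Spp1 alone still had 509317 to 784749 normalised counts, so both sets of markers were present in every library. Each of the 10 acute phase genes was therefore also set against the mean of the hepatocyte markers in its own library.

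On that scale nearly every gene was lower in Prox1 OE, because the marker mean itself was higher there, at 16.14 to 16.94 against 14.44 and 15.04. Over all genes tested the median difference was -1.76, with 97.1% of genes negative. The difference was negative for all 10 acute phase genes too, but nearer to 0 for each, from -0.32 for Orm2 to -1.33 for Saa3 on the log2 scale. Both ends depended on single libraries, Orm2 being at -0.03 without Control 1, -0.10 without Prox1 OE 3, -0.53 without Prox1 OE 2 and -0.61 without Control 2, and Saa3 at -0.78 without Control 1. For 6 of the 10 (Saa3, Saa4, Hp, Hpx, Apcs and Lrg1) all Prox1 OE values lay below both Controls, a pattern shown by 90.4% of all genes tested, and for 0 did all lie above. Each of those 6 had an exact permutation p of 0.2, the smallest possible. Averaged over the 10 genes, the value was -0.59 and -0.92 in Control and -1.70, -0.91 and -1.80 in Prox1 OE. Prox1 OE 2 thus lay at the level of Control 2, and the difference of -0.72 had an exact permutation p of 0.4.

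Saa4 showed the steadiest values against the hepatocyte markers, at -2.96 and -3.04 in Control and -3.33, -3.40 and -3.44 in Prox1 OE. Apcs was at -2.03 and -2.41 against -3.38, -3.14 and -3.78, with the groups farther apart. Saa1 and Saa2 were spread most widely. Saa1 was at -0.42 and -0.53 against -1.81, 0.32 and -1.21, and Saa2 at -1.06 and -1.12 against -2.40, -0.04 and -1.82, each with Prox1 OE 2 above both Controls and the other Prox1 OE libraries below them. Without Prox1 OE 1 the Saa1 difference was 0.03 and the Saa2 difference 0.16, against -0.43 and -0.33 with all libraries. Without Prox1 OE 2 they were -1.03 and -1.02, and without Prox1 OE 3 they were -0.27 and -0.13. With Alb alone in place of the 9 markers the Saa1 difference was -0.37.

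**Figure D3:**
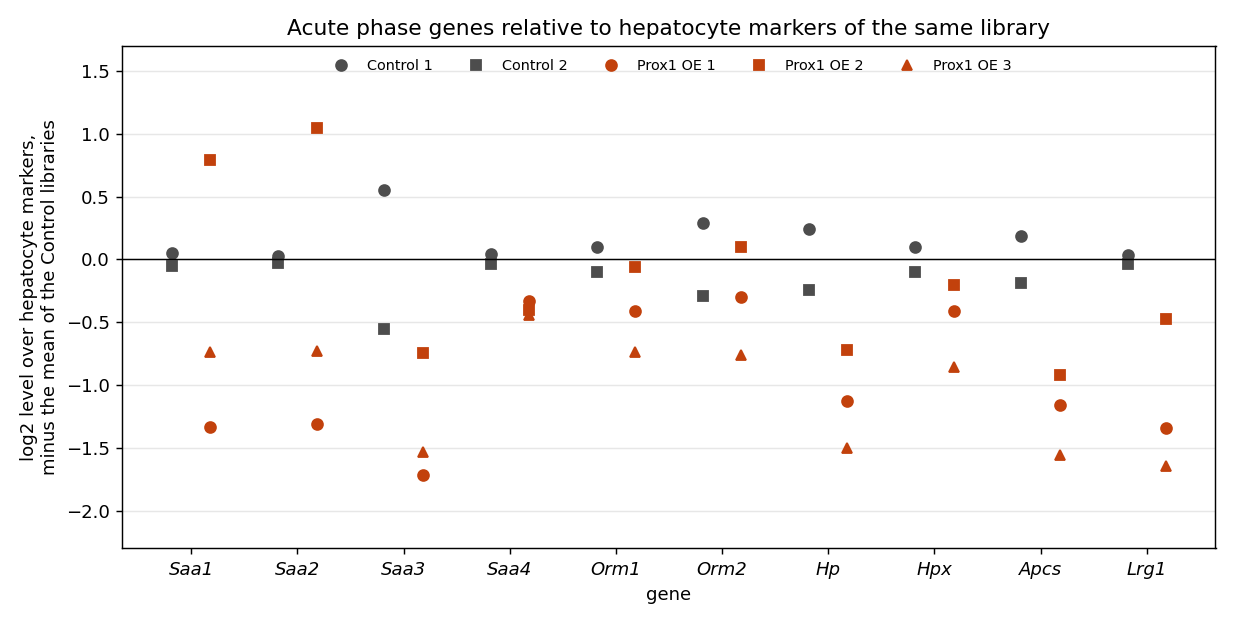
Log2 level of each acute phase gene over the mean of 9 hepatocyte markers in the same library, set to 0 at the Control mean, for the 2 Control (grey) and 3 Prox1 OE libraries (orange). In 6 genes all Prox1 OE points lie below both Control points, as in 90.4% of all genes tested, while Prox1 OE 2 lies above the Control points for Saa1 and Saa2.

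Of 20 other positive acute phase genes, 4 were higher in Prox1 OE and 1 was lower by limma, with a median log2 fold change of 0.44. Over all genes tested 17.1% were higher and 16.2% lower. Hamp, which encodes the iron hormone hepcidin, went from 830 and 1787 to 4242, 7790 and 11789 (log2 2.58 ± 0.45, limma adjusted p = 0.0062). Orm3, Lbp, the gene of the lipopolysaccharide-binding protein (log2 1.06), and the serpin gene Serpina3m (1.03) were the others that rose. Il1rn, which encodes the interleukin-1 receptor antagonist, was lower in every Prox1 OE library, at 1604, 1161 and 959 against 3901 and 4504 (log2 -1.79 ± 0.21, limma adjusted p = 0.0026).

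The fibrinogen genes had log2 fold changes of 0.31 (Fga), 0.41 (Fgb) and 0.55 (Fgg), and did not pass. Lcn2, the gene of lipocalin-2, had 51717 and 67900 normalised counts in Control and 57710, 68985 and 33683 in Prox1 OE, with overlapping groups (log2 -0.21, limma adjusted p = 0.63). Under total count scaling Fga and Fgb were at -0.12 and -0.02. Without Prox1 OE 1, 9 of the 20 passed as higher and 1 as lower, beside 21.8% and 22.0% of all genes tested.

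The negative acute phase genes were higher in Prox1 OE as well. Of 9, 7 passed as higher (Ttr, Serpina6, Alb, Rbp4, Apoa1, Hrg and Ahsg) and 0 as lower, with a median log2 fold change of 1.62. At an unadjusted p under 0.05, and by edgeR and DESeq2, 0 were lower either. Ttr, the gene of the thyroid hormone carrier transthyretin, went from 84187 and 110304 to 284166, 297692 and 435065 (log2 1.79 ± 0.30, limma adjusted p = 0.0052). Alb, the gene of albumin, went from 480678 and 798691 to 1978956, 1559106 and 2594529 (log2 1.69 ± 0.52, limma adjusted p = 0.043). Alb and Ttr are also hepatocyte markers. Only 3 of the 9 passed without Prox1 OE 2, and 0 without Control 1, where 4 were higher at an unadjusted p under 0.05.

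**Figure D4:**
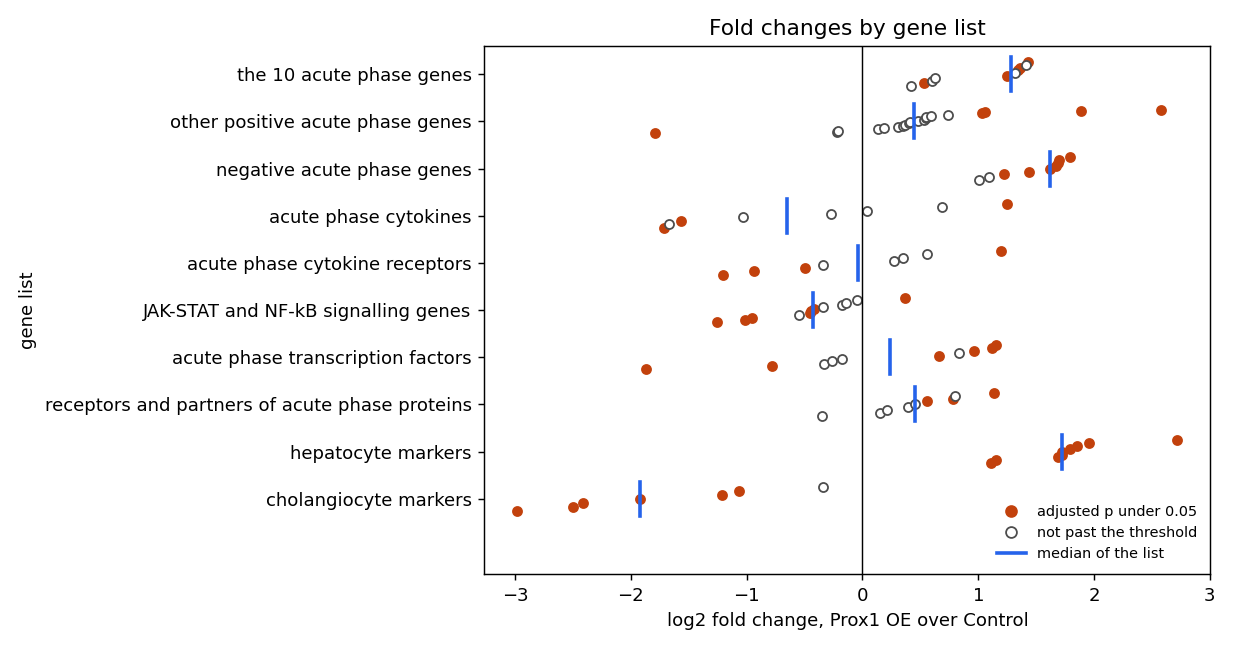
Log2 fold changes (Prox1 OE over Control) of the tested genes of each list, filled where the limma adjusted p was under 0.05, with a blue line at the median of the list. The acute phase genes lie to the right of 0 with both the negative acute phase genes (median 1.62) and the hepatocyte markers (1.72), and the signalling genes lie mostly to the left (-0.43).

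Among the cytokines that drive the response, 1 of 8 was higher and 2 were lower by limma, beside 17.1% and 16.2% of all genes tested. Tnf, the gene of tumour necrosis factor, had 624 and 559 normalised counts in Control and 224, 158 and 163 in Prox1 OE (log2 -1.71 ± 0.21, adjusted p = 0.0026). Lif, which encodes a cytokine of the interleukin-6 family, went from 354 and 373 to 191, 110 and 85.6 (log2 -1.57 ± 0.33, adjusted p = 0.012). Il1a rose from 73.9 and 95.8 to 172, 198 and 241 (log2 1.25 ± 0.24, limma adjusted p = 0.0087). Il1b had 101 and 153 against 193, 192 and 219, with the groups apart (log2 0.69 ± 0.24, limma adjusted p = 0.059). It passed as higher by DESeq2 (adjusted p = 0.038) and not by edgeR (0.071). Under total count scaling Il1b was at log2 0.26 (adjusted p = 0.4 by limma). Without Control 1, 0 cytokines were higher by limma and 1 was at an unadjusted p under 0.05. Lif did not pass without Control 1 (adjusted p = 0.073 by limma) or Control 2 (0.069), and without Control 2 the cytokines called lower numbered 1. Il11, of the interleukin-6 family too, had 27.9 and 104 normalised counts in Control against 15.3, 15.3 and 18.5 in Prox1 OE. All its Prox1 OE values lay below both Controls, and it just missed the threshold by limma (log2 -1.67 ± 0.55, adjusted p = 0.054). It passed as lower by edgeR (adjusted p = 0.032), by DESeq2 (adjusted p = 0.0085) and by limma under total count scaling (log2 -2.09, adjusted p = 0.012). Its log2 fold change was -2.60 without Control 1 (adjusted p = 0.029 by limma) and -0.74 without Control 2 (adjusted p = 0.39). Il6 was near the lower limit of counting, at 18.1 and 11 against 6.13, 11.8 and 3.47 (log2 -1.03, limma adjusted p = 0.22).

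Of 8 receptor genes for these cytokines, 1 was higher and 3 were lower by limma, beside 17.1% and 16.2% of all genes tested. Osmr, the oncostatin M receptor, was lower in every Prox1 OE library, at 1309, 1302 and 1037 against 2661 and 2885 (log2 -1.20 ± 0.14, limma adjusted p = 0.0026). Il1r1, the signalling receptor of interleukin-1, had 4170, 4364 and 4252 against 8097 and 8295 (log2 -0.94 ± 0.10, limma adjusted p = 0.0024). Lifr was lower by less (log2 -0.50), and Il1rap, the accessory chain of the interleukin-1 receptor, was higher (log2 1.20). Il6ra and Il6st, the binding and signalling chains of the interleukin-6 receptor, had log2 fold changes of 0.56 and -0.34 and did not pass by limma. Il6st passed as lower by DESeq2 (adjusted p = 0.034) and by limma under total count scaling (log2 -0.77, adjusted p = 0.0039). Without Control 1, 0 passed as higher (1 at an unadjusted p under 0.05) and 2 as lower.

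Of 12 genes of the JAK-STAT and NF-kB pathways, 6 passed as lower and 1, Tyk2, as higher. Nfkbiz, an NF-kB target and cofactor, had 1411 and 1694 normalised counts in Control against 755, 619 and 571 in Prox1 OE (log2 -1.26 ± 0.17, limma adjusted p = 0.0030). The feedback inhibitors Tnfaip3 (log2 -1.01), Socs1 (-0.95) and Nfkbia (-0.45) fell, as did Nfkb1 (-0.44) and Stat3 (-0.42). Tyk2 had a log2 fold change of 0.37, which was -0.06 under total count scaling. Socs3, the feedback inhibitor induced by STAT3, was not called, at 643 and 1210 against 617, 931 and 380 (log2 -0.55, limma adjusted p = 0.31). Leaving out Control 1, Control 2 or Prox1 OE 2 left 1 gene of the list as lower and 0 as higher in each case, and over all genes tested 3.63%, 5.54% and 10.1% then passed as lower. Without Prox1 OE 3, 4 of the list passed as lower and 0 as higher, against 11.4% of all genes as lower. At an unadjusted p under 0.05, 4 were lower without Control 1 or Control 2, 7 without Prox1 OE 2 and 6 without Prox1 OE 3, and 0 or 1 were higher in those fits. Over all genes tested, 13.0%, 14.9%, 19.5% and 19.4% were lower at that unadjusted p.

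Of 10 transcription factor genes, 4 were higher, Hnf4a, Foxa3 and Cebpa among them, and 2 were lower (Onecut1 and Foxa1). Over all genes tested the shares were 17.1% and 16.2%. Hnf4a, the central factor of hepatocyte identity and itself one of the hepatocyte markers, went from 8414 and 10194 to 19482, 18576 and 24052 (log2 1.15 ± 0.16, limma adjusted p = 0.0033). Onecut1, known also as a factor of bile duct development, went from 569 and 470 to 267, 87.3 and 120 (log2 -1.87 ± 0.43, limma adjusted p = 0.016). Cebpb, a C/EBP gene induced in the acute phase, had 1660 and 1781 in Control against 1678, 3772 and 4467 in Prox1 OE. Prox1 OE 1 lay between the Controls here too, and the fold change did not pass by limma with all libraries (log2 0.83, adjusted p = 0.13). It passed by DESeq2 (log2 0.95, adjusted p = 0.025), and by limma without Prox1 OE 1 (log2 1.26, adjusted p = 0.0035). It was 0.39 under total count scaling (adjusted p = 0.34) and 0.55 without Prox1 OE 3 (adjusted p = 0.28). Cebpa had a log2 fold change of 0.66, and of 0.23 under total count scaling (adjusted p = 0.26 by limma). Cebpd, another C/EBP gene of the list, had 877 and 995 in Control against 470, 961 and 1046 in Prox1 OE. Its log2 fold change of -0.26 did not pass by limma (adjusted p = 0.56). Without Control 1, 1 factor passed in each direction, and without Control 2, 3 passed as higher and 0 as lower, with 2 lower at an unadjusted p under 0.05.

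Of 9 receptors and partners of the acute phase proteins, 3 were higher and 0 lower by limma (17.1% and 16.2% of all genes tested). Of the 9, 1 was lower at an unadjusted p under 0.05, 0 by edgeR and 1 by DESeq2. Those that rose were Cd36 (log2 1.14), the scavenger receptor that binds lipids, Lrp1 (0.78), the receptor that takes up haem bound to hemopexin, and Scarb1 (0.56), the high density lipoprotein receptor that also binds SAA. Under total count scaling Lrp1 (0.35, adjusted p = 0.063) and Scarb1 (0.13, adjusted p = 0.42) did not pass by limma, and 1 of the 9 passed in each direction. Cd163, the macrophage receptor for haptoglobin with haemoglobin, had 184 and 409 normalised counts in Control and 421, 424 and 620 in Prox1 OE (log2 0.80 ± 0.34, limma adjusted p = 0.11). Hmox1, which encodes the enzyme that breaks down haem, had 2960 and 3090 against 2430, 2191 and 2520 (log2 -0.35, limma adjusted p = 0.052, and 0.033 by DESeq2). Without Control 1, 0 of the 9 passed in either direction, although 3 were higher and 0 lower at an unadjusted p under 0.05.

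**Figure D5:**
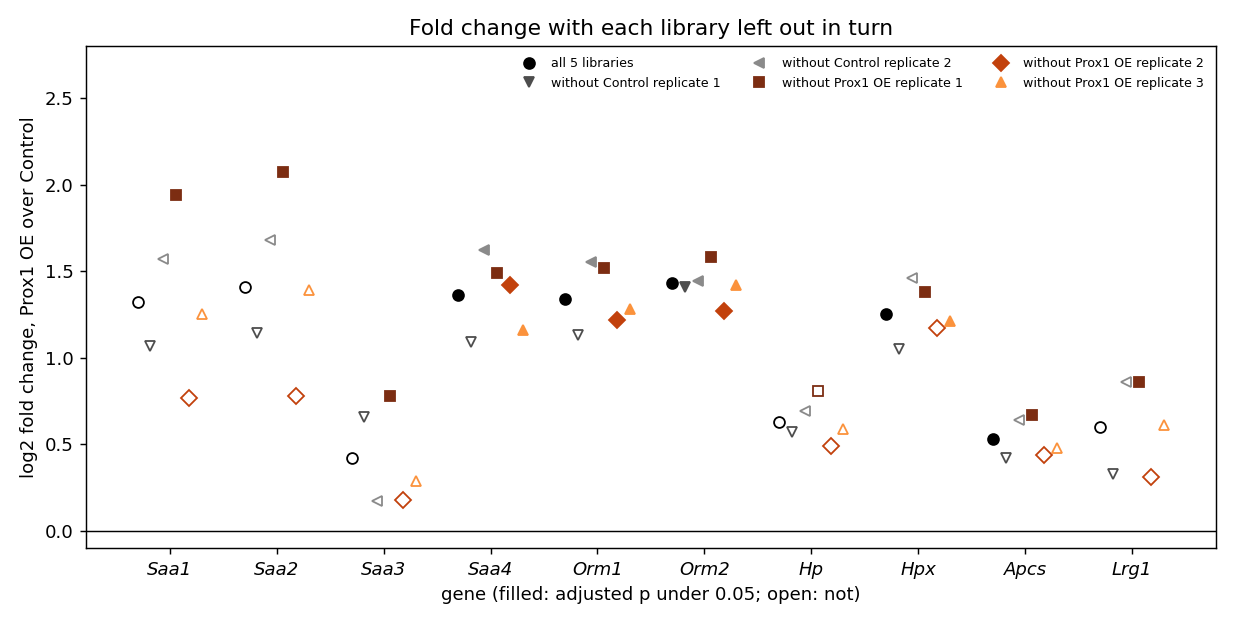
Log2 fold change of each acute phase gene with all 5 libraries and with each library left out in turn, filled where the limma adjusted p was under 0.05. Orm2 is filled throughout, and Saa1 ranges from 0.77 without Prox1 OE 2 to 1.94 without Prox1 OE 1.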

How the data were processed

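Total RNA of 5 tumours was sequenced by the authors from strand-preserving dUTP libraries as pairs of 100 base reads and mapped to mm10 with STAR, per the labels. The counting tool is not given in the sources used here. The deposited values are a signal per gene, namely reads divided by the DESeq2 size factor of the library, called normalised counts here. Whole reads were recovered for 100% of values (tolerance 0.01), 48740863 to 56629477 a library. A second table with the authors' own fold changes and p-values was not used, and 0 columns were left unassigned. Symbols came from GENCODE M21, which matched 99.5% of identifiers.

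log2(normalised count + 1) was fitted with limma 3.58.1 (R 4.3.3, trend, two-sided, Benjamini-Hochberg over 17105 genes with a mean of at least 10). This scale understates changes of low genes. As an alternative, edgeR 4.0.16 on recovered reads called 3077 genes higher and 2684 lower, and DESeq2 1.42.0 was also run. limma was tested on simulated counts. Ratios and shares were compared by exact permutation (scipy 1.17.1, two-sided p as double the smaller tail). Other alternatives were 3 scalings, 2 pseudocounts, 2 filters, limma without the trend, the replicate number as a block, and each library left out. Totals cover counting error only, and replicates differed by more than sampling noise. The genes and lists were chosen with earlier results of these data known. The rule named, besides the 10 genes, up to 5 genes of each list that passed with the largest changes, those needed to state a role, Prox1, and the 3 genes most like Saa1, Saa3 and Lrg1. Further genes of the negative acute phase, hepatocyte marker and signalling lists that passed were named after their values were seen. An item of these lists is not reported here by name.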

Additional observations from a re-analysis of the deposited data

How the results depend on the processing

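Of 160 fold changes of the 10 acute phase genes under 16 alternatives, 139 kept direction and side of the threshold, 12 lost their call, 8 gained one and 1 reversed. The reversed value was Saa3 under total count scaling (-0.01). That scaling moved the median of all genes to -0.45 (1472 higher, 6856 lower), the median of the 10 genes to 0.86 and the cytokines called to 5 (1 higher, 4 lower). The signalling genes called were 4 with no filter (8.41% of all genes higher and 7.95% lower), 2 without the limma trend (13.4% and 11.3%) and 4 under the replicate block (15.5% and 14.9%). By edgeR the log2 fold change of Prox1 was 2.36 and passed. DESeq2 called 9 other positive acute phase genes (8 higher, 1 lower) and 5 cytokines (2 higher, 3 lower), with 20.3% of all genes higher and 18.6% lower. Replicate numbers are shared between groups without a stated pairing, and the deviations of same-numbered libraries correlated at 0.14 and 0.016. The replicate block, which drops Prox1 OE 3, called 8 acute phase genes, all 8 higher, with Prox1 at 2.39 and past the threshold.

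With 1 library left out, acute phase genes called ranged from 1 to 9 (1 to 9 higher) and their median from 0.77 to 1.45. Genes called ranged from 4 to 10 for the other positive, 0 to 7 for the negative, 2 to 3 for the cytokine, 2 to 6 for the receptor, 1 to 8 for the signalling, 2 to 8 for the transcription factor and 0 to 4 for the partner list. Prox1 ranged from 1.12 to 2.39 and the Orm1 to Orm2 difference from -0.28 to 0.11. Without a Control library the lone one is assumed to vary like the others, and why the calls moved was not tested. Principal transcript length, added after seeing the data, raised the levels per length of Saa1, Saa2, Saa3 and Hp. Il6 had few reads, and a small change there was not detectable at this depth.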
